A study of Mus musculus with 8 samples.

Results

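Expression of 10 genes, listed as targets or Tcf/Lef factors of canonical Wnt signaling, was examined in hippocampi of mouse embryos with intrauterine growth restriction (IUGR) and of sham controls. The genes were taken from the table by name, from a list drawn up with earlier results of these data known: the feedback inhibitors Axin2, Nkd1 and Apcdd1, the Sp transcription factors Sp5 and Sp8, the Tcf/Lef transcription factors Lef1, Tcf7, Tcf7l1 and Tcf7l2, and the receptor Tnfrsf19. All 10 were found among the 16397 genes of the count table, and all 10 passed the limits on counts that left 13707 protein-coding genes for testing. A gene was called where its adjusted p did not exceed 0.05 and its log2 fold change was 1 or more in size, up or down. With edgeR none of the 10 met both criteria, against 1.46% of all tested genes. With the Wald test of DESeq2, Sp5 met both, as did 3.10% of all tested genes. Sp5 was the only one of the 10 whose IUGR and sham values did not overlap, with a level fitted by edgeR 58.1% lower in IUGR hippocampi, and 5.06% of all tested genes had every IUGR value below every sham value.

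In canonical Wnt signaling, a Wnt ligand that binds a Frizzled receptor stops the destruction complex, of which Axin2 can be a part, from marking β-catenin for degradation. β-Catenin then enters the nucleus and joins Tcf/Lef factors on DNA, which changes them from repressors to activators of their target genes. Several of these targets encode inhibitors of the pathway itself, so that their level is commonly read as its output. In the medial wall of the embryonic telencephalon the cortical hem is a known source of Wnt ligands, and loss of Lef1 or of a hem-derived Wnt ligand is known to impair formation of the hippocampus.

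Total RNA of E15.5 hippocampi was sequenced as 1 library for each of 4 IUGR and 4 sham samples. C57Bl/6J dams received a pump at E12.5 that delivered U-46619, a thromboxane A2 analog, for the IUGR group, whereas the sham group received the ethanol vehicle, and embryos of both sexes were collected. The IUGR libraries were named T1-1, T1-3, T1-4 and T1-5 and the sham libraries S1-4, S1-6, S3-1 and S3-4, and the sources used here do not say what the prefix stands for or which embryos shared a dam. Nothing states that samples came from separate litters, and p values therefore measure only the spread between these samples. All IUGR libraries carry the prefix T1, so that whatever the prefix marks cannot be told apart from the treatment. The model is a maternal infusion and the tissue is a whole dissected hippocampus, so that each value averages over all cell types in the dissection.

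Total counts were between 12919546 and 16672463 in IUGR libraries and between 11212632 and 15405748 in sham libraries. No within-group pair of libraries agreed within sampling noise (chi-square per degree of freedom of 27.7 or more in each pair), and each library was counted once. Levels are given as CPM, the share of a library's counts on tested genes after TMM scaling, times 1000000. All 9 markers of dorsal telencephalon and hippocampus were detected, and their summed CPM was 1106 to 1410 in IUGR libraries, against 916 to 2035 for sham. The libraries also differed in neighboring tissues. The 13 tested choroid plexus markers had a summed CPM of 46.7 to 441 in IUGR libraries, against 1043 to 1494 for sham, and 9 markers of the cortical hem outside the Wnt family of 45.0 to 197, against 232 to 374. Markers of meningeal fibroblasts summed to 2739 CPM in T1-3, against 77.6 to 768 CPM in the other IUGR libraries and 270 to 547 CPM in sham libraries. No tested marker of these lists was at 0 in any library.

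Across the 10 genes, 8 had a negative and 2 a positive log2 fold change, where negative means lower in IUGR. By sign alone, 55.5% of all tested genes were lower. The median log2 fold change of the 10 was −0.49, against −0.02 for all tested genes. The number called was 0 of 10 by edgeR's quasi-likelihood test, and 0 passed the adjusted p alone. At an unadjusted p under 0.05 there were 4 of 10, against 11.1% of all tested genes, and of these Sp5, Apcdd1 and Axin2 were lower, a direction and p that 6.62% of all tested genes shared, while Sp8 was higher. Because the tissue was analyzed in bulk, fewer cells of a type and less RNA per cell cannot be told apart in any of these differences.

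**Figure D1:**
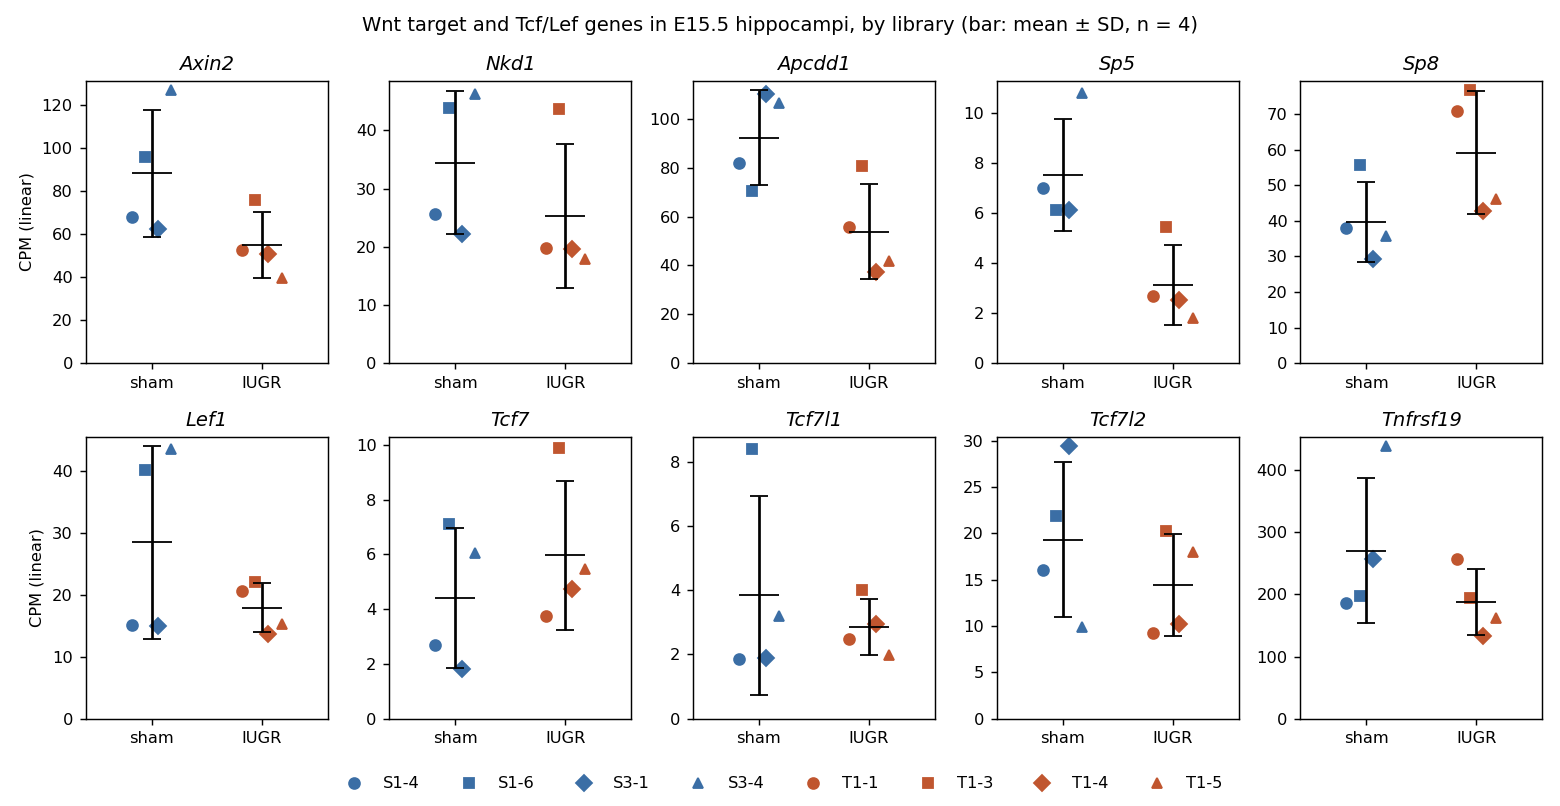
Level of each of the 10 genes in CPM on a linear axis from 0, for the 4 sham and the 4 IUGR libraries, with 1 symbol per library and the mean ± SD of each group. Sp5 is the gene whose groups do not overlap, and within the sham group Lef1 and Tcf7l1 spread widely, with S1-6 and S3-4 high for Lef1.

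Sp5, a zinc finger transcription factor of the Sp family, is a direct target of β-catenin and Tcf/Lef in many embryonic tissues. It lies at chr2:70474923-70477729 on the plus strand (GRCm38). In IUGR libraries Sp5 was at 2.70 (T1-1), 5.47 (T1-3), 2.53 (T1-4) and 1.83 CPM (T1-5), and in sham libraries at 7.03 (S1-4), 6.15 (S1-6), 6.12 (S3-1) and 10.8 CPM (S3-4). Every IUGR library lay below every sham library, although T1-3 came close to the lower sham libraries. The means were 3.13 ± 1.61 CPM in IUGR and 7.53 ± 2.24 CPM in sham (SD, n = 4), and the sham level fitted by edgeR was 2.39 times that of IUGR. The log2 fold change was −1.26 with a standard error of 0.36 and an adjusted p of 0.142 (edgeR), which did not pass the threshold. An exact two-sided permutation test of Sp5 gave p = 0.0286, the smallest that 4 samples against 4 can give, and was 1 of 10 such tests. Sp5 counts were low, between 24 and 152 per library. Without T1-3 the log2 fold change was −1.65 (adjusted p = 0.0348, edgeR), and Sp5 met both criteria, as it did with the Wald test of DESeq2 (adjusted p = 0.0433). In the other fits with 1 library left out, the adjusted p was 0.177 to 0.396 (edgeR). With the S1 sham libraries alone the log2 fold change was −1.06 (adjusted p = 0.613), and with the S3 sham libraries alone −1.41 (adjusted p = 0.319).

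The promoter of Sp5 is shown because the gene had the largest difference of the 10, and those of Axin2 and Tnfrsf19 for comparison. Each window spans 250 bases before to 50 bases after an annotated start, from RefSeq on GRCm38.p6, and is written in the direction of transcription. Capitals mark CTTTG, the core of the sequence that Tcf/Lef factors are known to bind, or its reverse complement CAAAG.
Sp5, chr2:70474673-70474972, plus strand: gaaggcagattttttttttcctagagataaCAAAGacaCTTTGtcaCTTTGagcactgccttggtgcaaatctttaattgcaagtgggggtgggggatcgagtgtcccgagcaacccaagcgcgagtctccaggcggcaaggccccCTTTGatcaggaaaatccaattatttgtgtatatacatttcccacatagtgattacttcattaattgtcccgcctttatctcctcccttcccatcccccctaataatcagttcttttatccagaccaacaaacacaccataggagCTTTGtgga
Axin2, chr11:108920099-108920398, plus strand: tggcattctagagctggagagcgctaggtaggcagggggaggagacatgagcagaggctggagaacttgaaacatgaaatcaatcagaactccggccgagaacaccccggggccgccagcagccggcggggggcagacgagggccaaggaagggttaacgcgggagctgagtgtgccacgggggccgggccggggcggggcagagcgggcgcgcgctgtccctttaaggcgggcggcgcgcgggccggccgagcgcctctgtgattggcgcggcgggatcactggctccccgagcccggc
Tnfrsf19, second window, chr14:61037938-61038237, minus strand: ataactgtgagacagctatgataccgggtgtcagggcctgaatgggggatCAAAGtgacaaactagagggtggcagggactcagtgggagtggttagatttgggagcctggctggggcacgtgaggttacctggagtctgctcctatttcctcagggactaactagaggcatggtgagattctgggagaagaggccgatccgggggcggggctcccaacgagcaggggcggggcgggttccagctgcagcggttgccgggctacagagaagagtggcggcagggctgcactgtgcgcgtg

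Both strands were searched for CTTTG and for the longer CTTTGAT, which contains it. The Sp5 window held 5 matches to CTTTG, and 0.286% of 32851 promoter windows of the same length held 5 or more. One of the 5 extends to CTTTGAT, and it begins 104 bases before the start. CTTTGAT was present in 3.73% of all windows. Of the 17 windows available for 9 of the 10 genes, 2 held CTTTGAT, the Sp5 window and the second Tnfrsf19 window, where it lies on the opposite strand. CTTTG alone was present in 11 of the 17 windows and in 53.9% of all windows, and the Axin2 window held none. These matches describe the letters in the window and were not tested for binding.

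Sp8, the other Sp factor, acts in limb and forebrain patterning and is also known from interneurons of subpallial origin. It lies at chr12:118846329-118852576 on the plus strand. Sp8 was at 71.0 (T1-1), 76.9 (T1-3), 42.6 (T1-4) and 46.2 CPM (T1-5) in IUGR libraries, and at 37.9 (S1-4), 55.7 (S1-6), 29.3 (S3-1) and 35.9 CPM (S3-4) in sham libraries. T1-1 and T1-3 lay above every sham library, whereas T1-4 and T1-5 lay below S1-6, so the groups overlapped. The means were 59.2 ± 17.3 CPM in IUGR and 39.7 ± 11.3 CPM in sham, with a log2 fold change of 0.58, a standard error of 0.25 and an adjusted p of 0.400 (edgeR). It was 0.34 with the S1 and 0.88 with the S3 sham libraries alone. Of the 11 markers of subpallium and interneurons 0 were called, the median of their log2 fold changes was 0.11, and their summed level was highest in T1-4 and lowest in T1-3. The part of these cells in the Sp8 values was not tested.

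Sp5 and Sp8 thus had fold changes of opposite sign, and their ratio within a library does not depend on library size. Sp8 counts were 14.1 to 26.3 times Sp5 counts in IUGR libraries and 3.31 to 9.06 times in sham libraries, with no overlap. Ratios of CPM between genes also reflect transcript length, which is the same in every library. Among all 45 pairs of the 10 genes, 9 pairs had ratios that did not overlap between the groups, as did 8.88% of all pairs of tested genes with counts above 0 in every library. Pairs that share a gene are not independent, and 5 of these 9 included Sp8, set against Lef1, Axin2, Nkd1, Apcdd1 and Sp5. For Axin2 over Sp8 the ratio was 0.74 to 1.19 in IUGR and 1.72 to 3.53 in sham libraries. These pairs were singled out after their values were seen and are given without a test.

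Axin2, a scaffold of the destruction complex and the most widely used readout of the pathway, lies at chr11:108920349-108950783 on the plus strand. Axin2 was at 52.8 (T1-1), 76.0 (T1-3), 50.6 (T1-4) and 39.5 CPM (T1-5) in IUGR libraries and at 67.9 (S1-4), 95.8 (S1-6), 62.4 (S3-1) and 127 CPM (S3-4) in sham libraries. All IUGR libraries but T1-3 lay below the lowest sham library, and T1-3 lay above S1-4 and S3-1. The means were 54.7 ± 15.3 CPM in IUGR and 88.2 ± 29.5 CPM in sham. The log2 fold change was −0.69 with a standard error of 0.26 and an adjusted p of 0.304 (edgeR). IUGR was the lower in 14 of the 16 pairs of an IUGR and a sham library.

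Apcdd1 encodes a membrane protein that binds Wnt ligands and their coreceptors and inhibits the pathway, and it lies at chr18:62922231-62961179 on the plus strand. Apcdd1 was at 55.6 (T1-1), 80.6 (T1-3), 37.3 (T1-4) and 41.7 CPM (T1-5) in IUGR libraries and at 82.2 (S1-4), 70.4 (S1-6), 110 (S3-1) and 107 CPM (S3-4) in sham libraries. Only T1-3 and S1-6 crossed, and IUGR was the lower in 15 of 16 pairs. The means were 53.8 ± 19.5 CPM in IUGR and 92.4 ± 19.3 CPM in sham. The log2 fold change was −0.78 with a standard error of 0.25 and an adjusted p of 0.198 (edgeR), and without T1-3 it was −1.01 (adjusted p = 0.0474), past both criteria. With the S1 sham libraries alone it was −0.50 (adjusted p = 0.868), and with the S3 sham libraries alone −0.99. The exact permutation test of Apcdd1 gave p = 0.0571.

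Nkd1, an inhibitor that binds Dishevelled, lies at chr8:88521354-88594884 on the plus strand. It was at 19.7 (T1-1), 43.7 (T1-3), 19.6 (T1-4) and 17.9 CPM (T1-5) in IUGR libraries and at 25.6 (S1-4), 43.8 (S1-6), 22.2 (S3-1) and 46.3 CPM (S3-4) in sham libraries. T1-3 stood apart from the other IUGR libraries at the level of S1-6, and the other IUGR libraries lay below every sham library. The means were 25.2 ± 12.3 CPM in IUGR and 34.5 ± 12.3 CPM in sham, and the log2 fold change was −0.45 with a standard error of 0.34 and an adjusted p of 0.865 (edgeR). It was −0.83 without T1-3, −0.29 without S1-6 and −0.27 without S3-4. The 3 inhibitors thus all had negative fold changes of which 0 were called, and in each of them T1-3 was the highest IUGR library.

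**Figure D2:**
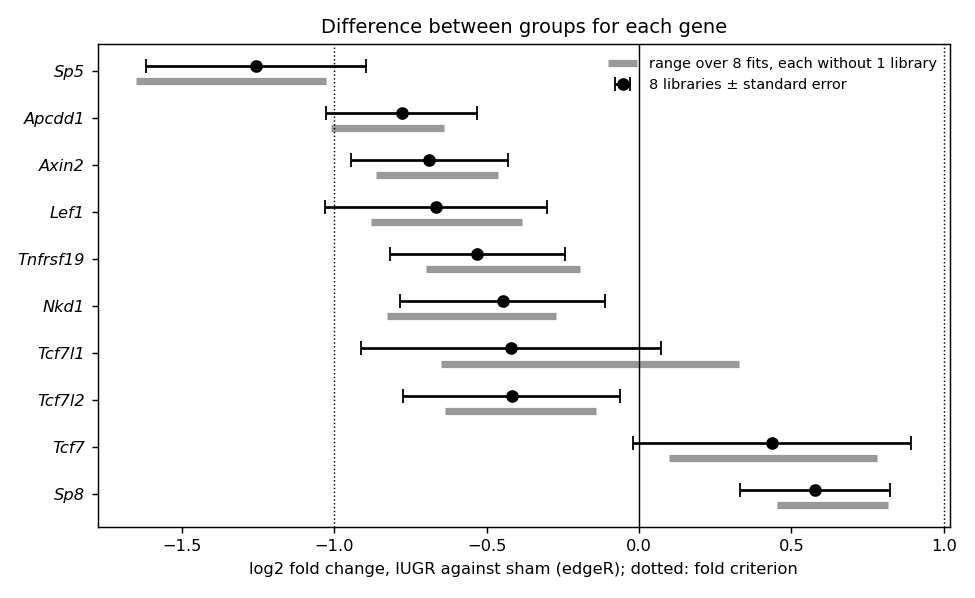
Log2 fold change of each gene, IUGR against sham, from edgeR with its standard error (points and bars, n = 4 per group), and the range over 8 fits that each leave out 1 library (gray). Sp5 lies past the fold criterion (dotted) and Sp8 and Tcf7 lie above 0, while the range of Tcf7l1 spans 0.

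Among the Tcf/Lef factors, which carry the DNA-binding domain of the complex, 3 had negative fold changes and Tcf7 a positive one, and all 4 overlapped between the groups. Lef1, mostly an activator in this family and needed for dentate granule cells, lies at chr3:131110471-131224356 on the plus strand. Lef1 was at 20.6 (T1-1), 22.1 (T1-3), 13.7 (T1-4) and 15.4 CPM (T1-5) in IUGR libraries and at 15.2 (S1-4), 40.2 (S1-6), 15.0 (S3-1) and 43.6 CPM (S3-4) in sham libraries. The sham libraries fell into a low and a high pair, with the highest 2.91 times the lowest, and the IUGR libraries lay nearer the low pair. The log2 fold change was −0.67 with a standard error of 0.36 and an adjusted p of 0.623 (edgeR), so the difference between group means, 17.9 ± 4.02 CPM in IUGR and 28.5 ± 15.6 CPM in sham, was within the spread of the sham libraries. Without S3-4 the fold change was −0.38, and without S1-6 −0.44.

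Tcf7, which has forms with and without the β-catenin binding domain, lies at chr11:52252371-52283014 on the minus strand and overlaps the gene A630014C17Rik on the other strand, from which its reads cannot be told apart if the counting ignored strand. Tcf7 was at 3.75 (T1-1), 9.90 (T1-3), 4.72 (T1-4) and 5.48 CPM (T1-5) in IUGR and at 2.68 (S1-4), 7.10 (S1-6), 1.80 (S3-1) and 6.06 CPM (S3-4) in sham libraries. The groups overlapped in part, with S1-4 and S3-1 below every IUGR library and T1-3 above every sham library. For Tcf7 the log2 fold change was 0.44 with a standard error of 0.46 and an adjusted p of 0.994 (edgeR), and it was 0.10 without T1-3, 0.18 without S3-1 and 0.78 without S1-6. With Xist as a covariate it was −0.038, and with the choroid plexus score as a covariate 1.15. Counts were low, from 23 to 161 per library.

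Tcf7l1, mostly a repressor, lies at chr6:72626378-72789254 on the minus strand. It was at 2.47 (T1-1), 4.00 (T1-3), 2.95 (T1-4) and 1.98 CPM (T1-5) in IUGR libraries and at 1.85 (S1-4), 8.40 (S1-6), 1.88 (S3-1) and 3.21 CPM (S3-4) in sham libraries. S1-6 was far above the other sham libraries. The log2 fold change was −0.42 (SE 0.49, adjusted p = 1.000, edgeR) and turned to 0.33 without S1-6.

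Tcf7l2, which is strongly expressed in the embryonic thalamus, lies at chr19:55741820-55933654 on the plus strand. It was at 9.29 (T1-1), 20.3 (T1-3), 10.2 (T1-4) and 17.9 CPM (T1-5) in IUGR libraries and at 16.1 (S1-4), 21.9 (S1-6), 29.4 (S3-1) and 9.91 CPM (S3-4) in sham libraries. The highest and the second-lowest value were both sham, and the log2 fold change was −0.42 with a standard error of 0.35 and an adjusted p of 0.926 (edgeR). It was −0.14 without S3-1, −0.22 without T1-1 and −0.64 without S3-4. The summed level of 6 thalamus markers was 38.0 CPM in S3-1, where Tcf7l2 was highest, and 5.56 CPM in S3-4, where it was lowest among sham libraries, against 19.3 CPM in S1-4, 14.3 CPM in S1-6 and 7.08 to 14.1 CPM in IUGR libraries. The part of thalamic tissue in the Tcf7l2 values was not tested.

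Levels of the 4 factors were compared with each other as CPM per kb of exon. Their summed level was 6.68 ± 2.01 CPM per kb in IUGR and 8.10 ± 3.09 CPM per kb in sham libraries. Lef1 made up 38.4 ± 11.2% of it in sham and 31.5 ± 7.75% in IUGR libraries, and Tcf7l2 30.8 ± 18.3% and 24.4 ± 5.45%. Tcf7l1 was the smallest share on average in both groups, at 11.0 ± 4.72% and 11.1 ± 2.62%. Tcf7 made up 20.2 (S1-4), 22.7 (S1-6), 11.0 (S3-1) and 25.0% (S3-4) in sham libraries and 26.1 (T1-1), 39.2 (T1-3), 34.1 (T1-4) and 32.7% (T1-5) in IUGR libraries. The Tcf7 share was higher in every IUGR library than in any sham library, which was seen after the values were known and was not tested. Lengths of the longest transcript in place of all exons put the Tcf7 share at 19.3 ± 3.88% in IUGR and 10.6 ± 3.64% in sham, so that the size of the share depends on the length used.

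**Figure D3:**
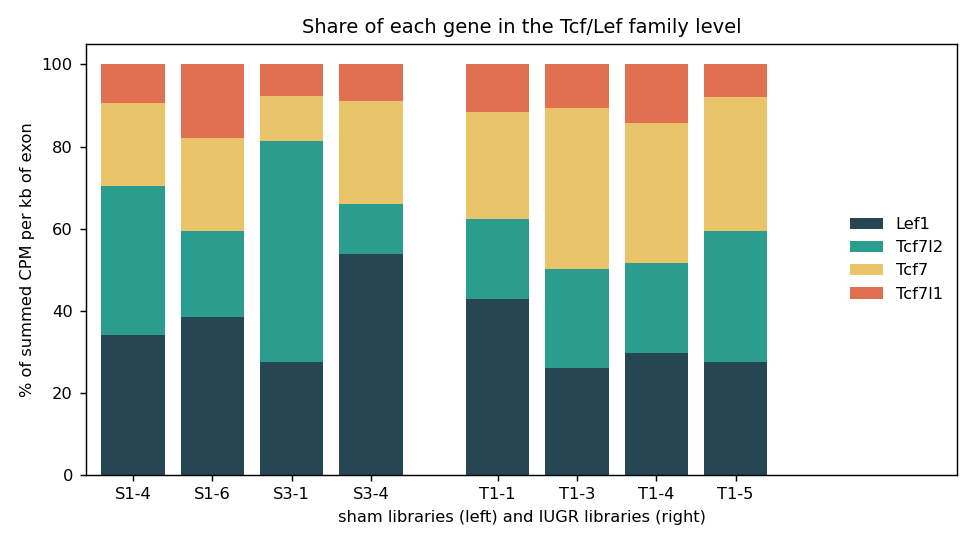
Share of Lef1, Tcf7l2, Tcf7 and Tcf7l1 in their summed level per library, in percent of summed CPM per kb of exon, for the sham libraries (left) and the IUGR libraries (right). The Tcf7 share is 11.0 to 25.0% in sham and 26.1 to 39.2% in IUGR libraries, and the Tcf7l2 share is largest in S3-1.

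Tnfrsf19, also known as Troy, is a receptor of the tumor necrosis factor family that is activated by Wnt signaling and expressed in neural progenitors. It lies at chr14:60963875-61046490 on the minus strand. Tnfrsf19 was at 258 (T1-1), 195 (T1-3), 134 (T1-4) and 163 CPM (T1-5) in IUGR libraries and at 186 (S1-4), 198 (S1-6), 258 (S3-1) and 439 CPM (S3-4) in sham libraries. S3-4 stood above all others and T1-1 was at the level of S3-1, so the groups overlapped. The log2 fold change was −0.53 with a standard error of 0.29 and an adjusted p of 0.616 (edgeR), at group means of 187 ± 53.3 CPM in IUGR and 270 ± 117 CPM in sham. Without S3-4 it was −0.19 and without T1-1 −0.70, and it was −0.039 with the S1 and −0.88 with the S3 sham libraries alone. The 8 markers of radial glia and neural stem cells were split, with 4 lower, 4 higher and 0 called, and their median log2 fold change was −0.04.

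On the scale of CPM per kb of exon, sham levels ran from Tnfrsf19 at 57.1 ± 24.7, above 95.1% of all tested genes, through Axin2 at 16.0 ± 5.36 to Tcf7l1 at 0.977 ± 0.792, above 12.9%. The other genes lay between at 8.71 ± 2.47 for Sp8, 7.56 ± 2.70 for Nkd1, 7.17 ± 1.50 for Apcdd1, 3.59 ± 1.07 for Sp5, 3.24 ± 1.77 for Lef1, 2.20 ± 0.948 for Tcf7l2 and 1.68 ± 0.977 for Tcf7. Sp8, Nkd1 and Apcdd1 did not differ beyond their spread, nor did neighbors in the order from Sp5 down to Tcf7l1. The order depends on the length used, since with the longest transcript Lef1 was at 7.79 ± 4.25 and Tcf7l2 at 5.20 ± 2.24, both above Sp5. The same scale in IUGR libraries gave 39.5 ± 11.2 for Tnfrsf19, 13.0 ± 3.79 for Sp8 and 9.94 ± 2.78 for Axin2. Sp8 and Axin2 thus changed places in the order of the means. Their IUGR values overlapped, at 9.36 to 16.9 for Sp8 and 7.17 to 13.8 for Axin2.

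The 10 genes were not high and low in the same libraries only by group. In T1-3 and in S1-6, 9 of the 10 lay above their own mean over the 8 libraries, and in S3-4 it was 8. In T1-1, T1-4 and T1-5 it was 2, and in S1-4 and S3-1 it was 4. For all tested genes the share above the own mean stayed between 46.4 and 55.3% per library. The median of the 10 genes, as log2 CPM minus the gene's own mean, was 0.69 in S3-4, 0.50 in S1-6 and 0.31 in T1-3, and −0.55 in T1-4, −0.49 in T1-5, −0.29 in T1-1, −0.21 in S3-1 and −0.16 in S1-4. One IUGR library thus stood with the upper sham libraries. S3-4 held the highest value of Lef1, Axin2, Nkd1, Sp5 and Tnfrsf19.

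**Figure D4:**
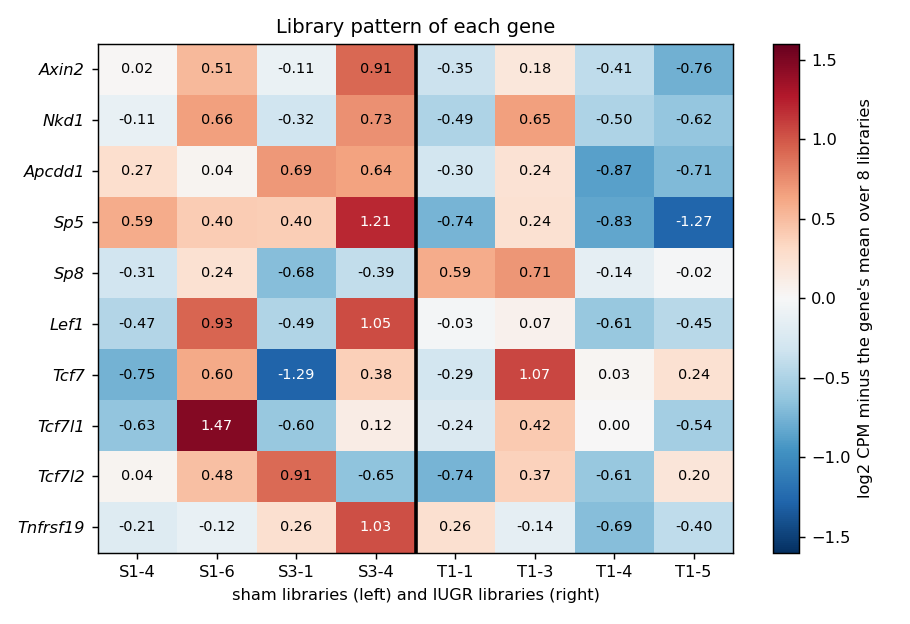
Log2 CPM of each gene minus its own mean over the 8 libraries, with the value in each cell, for sham (left of the line) and IUGR libraries (right). S1-6, S3-4 and T1-3 are above the mean for most genes, and Sp5 is above it in all sham libraries and in T1-3.

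Summed levels of the choroid plexus and cortical hem markers, like Sp5, did not overlap between the groups. With the choroid plexus score as a covariate, the Sp5 log2 fold change was −0.84 (standard error 0.62, adjusted p = 0.694, edgeR), that of Axin2 was −0.59 (standard error 0.46) and that of Apcdd1 was −0.42 (standard error 0.42). The score itself did not overlap between the groups, so that it and the treatment cannot be told apart in this fit. Without T1-1 and T1-4, the libraries with the lowest score, Sp5 was at −1.03 (adjusted p = 0.360), Axin2 at −0.61, Apcdd1 at −0.59 and Sp8 at 0.63, while Nkd1 was at −0.16 and Tcf7l2 at −0.015. With the covariate Tcf7l2 turned to 0.39 and Nkd1 to 0.10, and 6 of the 10 were lower. All others of the 10 kept the sign of their fold change in both fits, those with overlapping groups included. Tcf7 was at 1.15 with the covariate and at 0.80 without T1-1 and T1-4.

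Other genes of the pathway were counted by role, from lists of which no member is among the 10. The 15 tested genes of β-catenin and its destruction complex showed 6 lower, 9 higher and 0 called, with 0 at an unadjusted p under 0.05 and a median log2 fold change of 0.01. Ctnnb1, which encodes β-catenin, had a mean of 2296 ± 173 CPM in the IUGR group and 2247 ± 306 CPM in the sham group, with a log2 fold change of 0.03 and a standard error of 0.14. The largest fold change of that list was −0.39 for Dvl3, which encodes a Dishevelled protein (standard error 0.26, adjusted p = 0.786, edgeR). It rests largely on S1-6, at 52.8 CPM, against 21.6 to 26.5 CPM in the other sham libraries and 22.1 to 25.6 CPM in IUGR libraries. Among 16 tested nuclear partners of the Tcf/Lef factors 9 were lower, 7 higher and 0 called, with 2 at an unadjusted p under 0.05, both higher. Their median was −0.11 and turned to 0.13 without S1-6. The largest fold change was 0.40 for the corepressor Tle4 (standard error 0.14, adjusted p = 0.229, edgeR).

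Of 20 further genes that have been reported as β-catenin targets, 13 were lower and 7 higher. The median was −0.14 and ranged from −0.29 without S3-1 to −0.016 without T1-5. At an unadjusted p under 0.05 (edgeR) there were 6, all lower, against 11.1% of all tested genes in either direction. Both that were called fell, and both encode secreted inhibitors: Dkk1 fell by 3.12 on the log2 scale (SE 0.42, adjusted p = 0.00998, edgeR) and Wif1 by 2.20 (SE 0.41, adjusted p = 0.0301). Mean Dkk1 was 0.185 ± 0.0776 CPM for IUGR and 1.67 ± 0.248 CPM for sham, so that its fold change rests on very few IUGR counts. Rnf43, a ubiquitin ligase that removes Frizzled receptors and a feedback inhibitor like Axin2, had values of 1.95 to 3.87 CPM for IUGR, below the 5.73 to 10.7 CPM for sham, without overlap. Its log2 fold change was −1.37 with a standard error of 0.31, and its adjusted p of 0.0571 did not pass. Myc and Ccnd1, targets tied to proliferation, had positive fold changes of 0.70 (standard error 0.38, adjusted p = 0.613) and 0.49 (standard error 0.24, adjusted p = 0.532). Ctnnb1, Rnf43, Myc and Ccnd1 were singled out after their values were seen. Of 13 tested Wnt ligands, 10 were lower and 3 higher, and 3 were called, all lower (Wnt3a, Wnt2b and Wnt8b), with a median of −0.50. Of these ligands 6 were at an unadjusted p under 0.05 (edgeR), all lower.

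**Figure D5:**
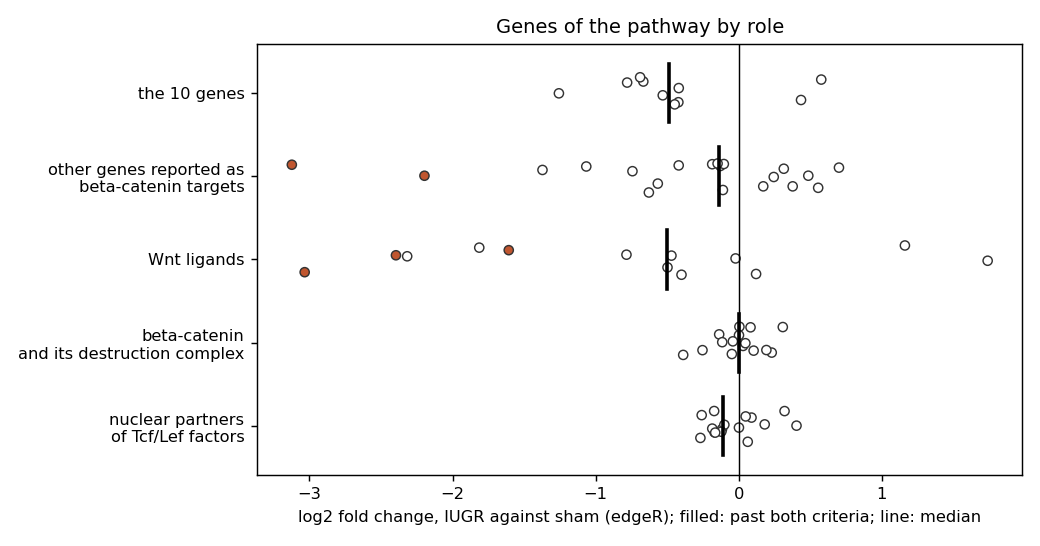
Log2 fold change, IUGR against sham, of every tested gene in 5 groups by role (points), with genes past both criteria filled and the group median as a line. Called genes are among the Wnt ligands and the further reported targets, while genes of the destruction complex and the nuclear partners lie within −0.39 and 0.40.

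Profiles over the 8 libraries were compared by the root mean square difference of log2 CPM after each gene was set to its own mean, over 11906 candidate genes, which describes likeness in these libraries only. The gene closest to Sp5 was Fzd7, a Frizzled receptor, at 0.222, followed by Tmem132c and Fam163a, and the closest of the 10 was Apcdd1 at 0.379. Axin2 was closest to Col2a1 at 0.142, Ssfa2 and Slc9a3r1, and Nkd1 to Insm2 at 0.161, Slc9a3r1 and Timp2. Axin2 and Nkd1 were each other's closest among the 10, at 0.221. Apcdd1 was closest to Slc7a4 at 0.186, Qsox1 and Plcd1, and Tnfrsf19 to Aldoc at 0.176, Zbtb18 and Inhbb. Sp8 and Tcf7 were each other's closest among the 10, at 0.536, and Tcf7l2 lay farther still from any of the others, with Apcdd1 closest at 0.619. The distance between Sp8 and Tcf7 exceeds the spread of Sp8 about its own mean (0.452) but not that of Tcf7 (0.709). That between Tcf7l2 and Apcdd1 exceeds the spread of both (0.567 and 0.544). Neither pair was as close as Axin2 and Nkd1. Sp8 was closest to Jup at 0.124, Fam171a1 and Flt4. Of the Tcf/Lef factors, Lef1 was closest to Flrt1 at 0.175, Rassf4 and Tenm4. Tcf7 was closest to Fam189b at 0.208, Myadm and Foxo1. Tcf7l2 was closest to Nenf at 0.280, Lrrtm3 and Gulp1.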

How the data were processed

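Hippocampal RNA was collected at E15.5 (IUGR, n = 4, sham, n = 4), depleted of ribosomal RNA and sequenced as stranded single-read libraries. The authors aligned reads to GRCm38 and deposited raw counts per gene, without normalization. Novoalign 2.8 is named in the submitters' processing notes; the counting program, annotation, strand setting and differential test are not given in the sources used here. Identifiers were matched to GENCODE M21, and 273 without a match were left out. The 13707 protein-coding genes whose mean count lay from 10 to below 50000 were tested with edgeR 4.0.16 in R 4.3.3 (TMM, quasi-likelihood test), and p values were adjusted over all of them (Benjamini-Hochberg). The procedure was tested on simulated data. CPM were computed on library sizes scaled by TMM, and log2 CPM with a prior count of 2. Single genes were also compared by exact two-sided permutation tests of mean log2 CPM. Marker scores are mean log2 CPM over a list. Lengths are of merged exons.

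The 10 genes and the pathway and marker lists were chosen with earlier results of these data known. Besides the 10, the genes named are those called in a list (at most 3), the largest fold change of a list described in detail, the 3 closest profiles among genes whose mean count reached 50 (those of Tcf7l1 are not reported here), and genes said to be singled out. Alternatives were other normalizations, DESeq2 1.42.0, limma-voom (limma 3.58.1), other filters, samples left out, sham prefixes S1 or S3 alone, and a covariate, either Xist or the choroid plexus score. Depth is given with the samples, and of the 10 genes Sp5, Tcf7 and Tcf7l1 had the fewest counts.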

Additional observations from a re-analysis of the deposited data

Results flagged for a closer look

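Nkd1 in T1-3 stood apart within the IUGR group. Its level of 43.7 CPM was far from the other 3 IUGR libraries, which lay between 17.9 and 19.7 CPM, with a gap of 0.932 of the range of the group, above Dixon's critical value for 4 samples. Of 20 groups of 4 values examined, 1 was set apart in this way, and chance alone sets apart about 1 in 20. In T1-3 the meningeal fibroblast markers summed to 2739 CPM, the highest of the 8 libraries, and the part of these cells in the Nkd1 value was not tested.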

How the results depend on the processing

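Of the 10 genes, 0 met both criteria under most of the 20 alternatives; the exceptions were the Wald test of DESeq2, with 1 (Sp5), and the fit without T1-3, with 2 (Sp5 and Apcdd1), so that with 1 library left out the number ranged from 0 to 2. Over all alternatives the log2 fold change of Sp5 lay between −1.65 and −0.84, and that of Axin2 between −0.86 and −0.46. The number of the 10 with a negative fold change was 8, and 7 to 8 with 1 library left out, 7 with the S3 sham libraries alone, 9 with the Xist and 6 with the choroid plexus covariate. Signs turned for Tcf7 with Xist as a covariate (−0.038), for Tcf7l1 without S1-6 (0.33) and with the S3 sham libraries alone (0.18), and for Tcf7l2 (0.39) and Nkd1 (0.10) once the choroid plexus score was a covariate, and the cause was not tested. Without S1-6 the median of the nuclear partners was 0.13, and with 1 library left out it ranged from −0.20 to 0.13. Among all tested genes 200 were called, against 425 with DESeq2, 328 with limma-voom, 94 with the choroid plexus covariate (4 of them lower in IUGR, against 186 of the 200), 2 with the S3 and 0 with the S1 sham libraries alone, 0 with Xist as a covariate, and 41 to 298 with 1 library left out. Leaving out a library cuts the degrees of freedom, and Sp5, Tcf7 and Tcf7l1 had the fewest counts of the 10. No paired analysis was possible because the labels give no number or animal that pairs samples across groups.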

Other observations

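Among cell types not described with the 10 genes, all 8 neuronal markers had positive log2 fold changes, with a median of 0.33 and 0 called, and their summed CPM was 5017 to 5576 for IUGR, against 3662 to 4732 for sham. The largest was 1.08 for Syt1, a synaptic vesicle protein (adjusted p = 0.063, edgeR). All 5 markers of oligodendrocyte precursors were also positive, with a median of 0.39 and 0 called, and the largest was Sox10 at 2.24 (adjusted p = 0.346, edgeR). Sox10 was at 11.1 CPM in T1-3, against 0.674 to 1.90 CPM in the other IUGR libraries and 0.392 to 1.13 CPM in sham libraries, so that its fold change rests largely on T1-3. Pdgfra was likewise at 149 CPM in T1-3, against 19.4 to 78.0 CPM in the other IUGR libraries and 45.1 to 71.6 CPM in sham libraries. Its sign therefore also depends on T1-3. Among IUGR libraries Olig1 and Cspg4 were also highest in T1-3, whereas Olig2 was lowest there, at 24.2 CPM against 34.6 to 58.1 CPM. Pdgfra, Olig1, Olig2 and Cspg4 were singled out after their values were seen. Of 12 endothelial markers 4 were lower and 8 higher, with a median of 0.41 and 0 called. The largest fold change was −2.93 for the transporter Slco1a4 (adjusted p = 0.217, edgeR), and all others lay between −0.48 and 0.77. Slco1a4 was lowest in T1-1 (0.52 CPM) and T1-4 (0.17 CPM), the libraries with the lowest choroid plexus score. The part of that tissue in the Slco1a4 values was not tested. The 8 meningeal fibroblast markers were all positive, with a median of 1.20 and 0 called, which rests on T1-3 as well. The mean log2 CPM of these markers was 7.37 in T1-3, against 2.56 to 5.64 in the other IUGR libraries and 4.04 to 5.35 in sham libraries.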
